A study of Mus musculus with 4 samples.

Results

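Small nucleolar RNAs (snoRNAs) were read from 4 single-colour Affymetrix arrays, hybridised with total RNA of C57BL/6 mouse small intestine. The members are all genes with a symbol that starts with Snord or Snora and with a probe set of their own in the platform annotation. They number 51 of the 19938 genes measured, of which 31 are box C/D (Snord) and 20 are box H/ACA (Snora) genes. A gene with more than 1 probe set was represented by the one with the highest mean over the 4 arrays, so the probe sets were chosen by their mean log2 value over both genotypes, the only measured value used. The set was proposed with earlier results of these data known, so that its counts and medians are a description. No gene was left out for a low value. Another 41 probe sets carry a snoRNA symbol together with other symbols, 24 of them for Snord116, and were not used.

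The CFLARs Tg group has 2 arrays, titled XCFX and XCFY, from mice carrying a transgene for CFLARs, the short form of the caspase-8 regulator encoded by Cflar. The wild-type group has 2 arrays, titled XX and XY, from mice of the same strain without a stated allele. Replicate 1 of each genotype is the array with the XX-type title and replicate 2 the array with the XY-type title. The labels do not explain these titles, and whether transgene dose is equal on both CFLARs Tg arrays is not stated. The promoter and copy number of the transgene, the age of the mice and the number of animals behind an array are not stated in the labels, so p-values measure only the spread between these arrays, which may be technical in part and also holds any difference between the sex types.

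A snoRNA is a short nuclear RNA that works inside a ribonucleoprotein particle (snoRNP) in the nucleolus. Box C/D snoRNAs guide the methylation of riboses and box H/ACA snoRNAs the conversion of uridine to pseudouridine, mainly in ribosomal RNA, by pairing with the site to be modified. A few, such as U3, U8, U14, U17 and U22, act in the cutting of the ribosomal precursor RNA. In mammals most snoRNAs lie inside introns of host genes, many of which encode ribosomal proteins or nucleolar factors, and are trimmed from the excised intron, while a few have promoters of their own.

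All values are log2 expression values as deposited, differences are CFLARs Tg minus wild-type, SD is over the 2 arrays of a genotype, and SE and adjusted p come from a limma fit over all 19938 genes with Benjamini-Hochberg adjustment. A gene is said to rise or fall only where its adjusted p was under 0.05. A probe set for a snoRNA in an intron can also bind unspliced host RNA, so mature snoRNA and host precursor cannot be told apart, and in whole tissue fewer cells of a type and less RNA per cell cannot be told apart either.

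The array medians lay between 8.31 and 8.33. Xist on the XCFY and XY arrays, and 3 genes of the Y chromosome (Eif2s3y, Kdm5d and Uty) on the XCFX and XX arrays, read between 5.13 and 6.78, and this range served as a scale for background. Of the 51 members, 47 lay above 6.78 on all 4 arrays, and 4 (Snord61, Snord58b, Snord73a and Snord38a) had at least 1 reading within the range. Cflar read 9.49 and 9.30 in CFLARs Tg, against 9.34 and 9.28 in wild-type, and does not check the labels, since the part of the transgene that its probe set matches is not known here. Markers of small intestinal epithelium (13 genes) averaged 11.82 and 11.55 in CFLARs Tg, against 11.74 and 11.82 in wild-type, and 0 of them lay at background on all arrays. These averages hide members that went both ways. On both CFLARs Tg arrays 7 of the 13 (53.8%, against 31.6% of all genes) lay below both wild-type arrays. Another 4 (30.8%, against 29.2% of all genes) lay above both. Sis fell (difference -0.52, limma adjusted p = 0.0204), Krt20 rose (1.35, adjusted p = 0.0211) and Lct differed by -1.49 (adjusted p = 0.117). The 10 neutrophil markers averaged 8.24 on XCFX and 9.32 on XCFY, against 6.97 and 7.02 in wild-type. Of these 10, 6 rose, against 5.31% of all genes. The 7 measured hepatocyte markers averaged 10.11 on XCFX and 8.78 on XCFY, against 10.25 and 10.77 in wild-type. On both CFLARs Tg arrays 6 of the 7 (85.7%, against 31.6% of all genes) lay below both wild-type arrays. Alb, at 11.20 on XCFX and 6.57 on XCFY, was furthest apart between the CFLARs Tg arrays. Ttr fell (-0.84, adjusted p = 0.0396), and Tat was higher (1.36, adjusted p = 0.0570). Lymphocyte markers (6 measured) averaged 7.30 and 7.42, against 7.18 and 7.24, with 2 of the 6 at background on all arrays, and neuronal markers (7 measured) averaged 9.05 and 9.08, against 9.10 and 9.08. The part of these cell types in the snoRNA values was not tested.

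Most snoRNA genes read higher in CFLARs Tg by a small amount. The mean was higher for 39 of 51 members, against 9962 of all 19938 genes, and the median difference was 0.19 for box C/D and 0.14 for box H/ACA genes, a 1.14-fold and a 1.10-fold difference, beside -4.54e-05 for all genes. The difference was positive in both the XX-type and the XY-type pair of arrays for 33 members, or 64.7%, against 33.9% of all genes. Both CFLARs Tg arrays lay above both wild-type arrays for 27 members, or 52.9%, against 29.2% of all genes, and below both for 3 members, against 31.6%.

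Single genes passed the test less often than these counts. Of the 51 members 8 rose, or 15.7%, against 5.31% of all genes that rose, and 0 fell, against 6.70% of all genes. In box C/D 5 of 31 rose, and in box H/ACA 3 of 20. An unadjusted limma p under 0.05 was found for 20 members that read higher and 2 that read lower, in all 43.1%, against 30.9% of all genes. The smallest adjusted p short of the threshold was that of Snord49a (0.0509), and the largest past it that of Snord42b (0.0456).

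The calls and the medians depended on single arrays. Without wild-type replicate 1 or without wild-type replicate 2, no member kept its call (limma). Of all genes 0.256% rose and 0.0652% fell without wild-type replicate 1, and 0.266% rose and 0.0301% fell without wild-type replicate 2. Without CFLARs Tg replicate 1, 21 members rose and 5 fell, against 14.0% and 15.5% of all genes. Without CFLARs Tg replicate 2, 9 members rose and 1 fell, against 7.59% and 9.33% of all genes. All 8 calls were kept in both cases. With sex type as a block 11 members rose and 0 fell, against 6.67% and 7.92% of all genes. The box C/D median was 0.30 without CFLARs Tg replicate 1. The box H/ACA median was 0.034 without wild-type replicate 2, when 10 of its 20 members read higher and 10 lower.

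**Figure D1:**
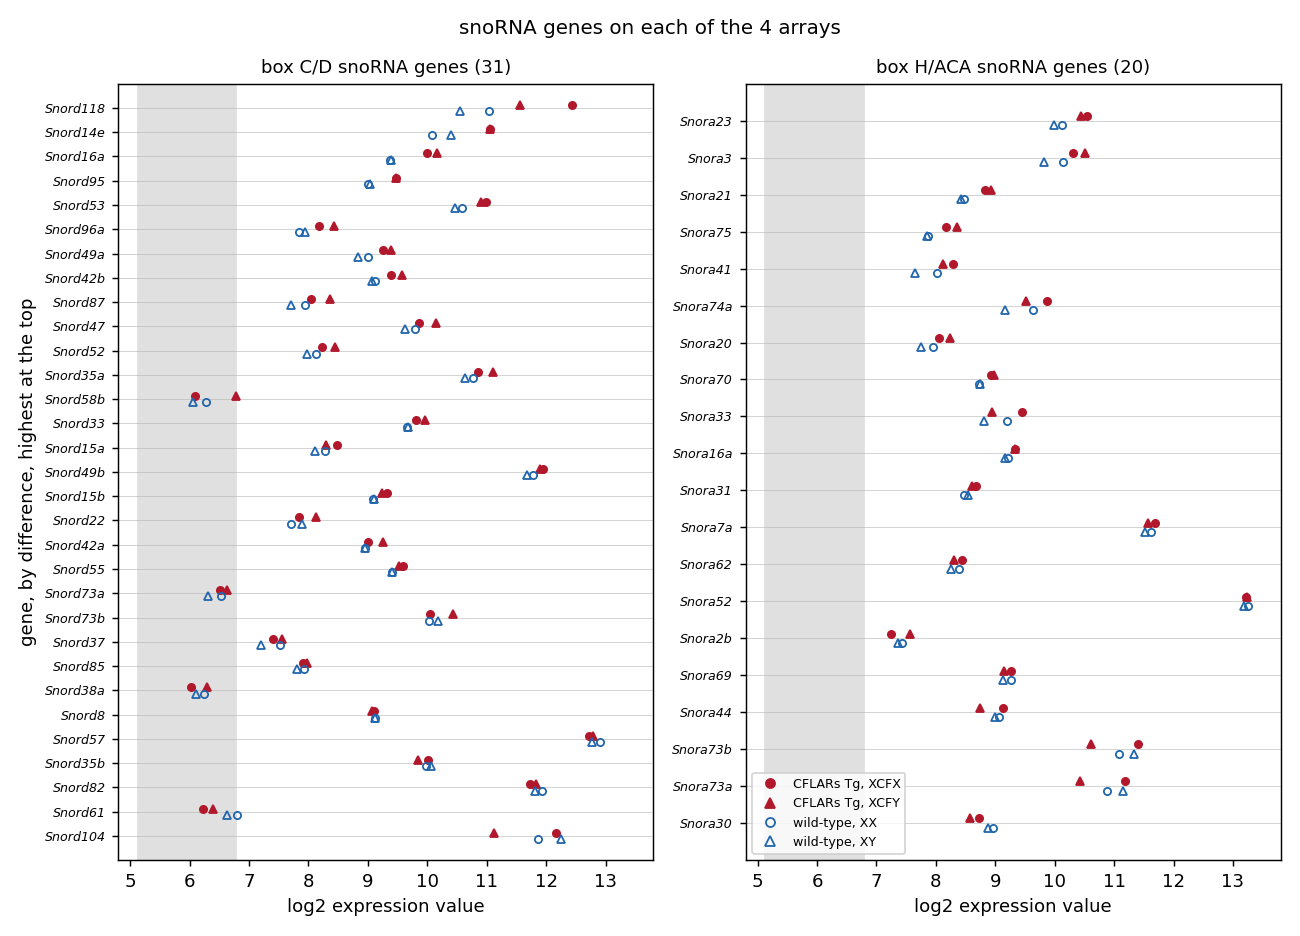
The log2 expression value (horizontal axis) of each snoRNA gene on each array, for 31 box C/D genes (left) and 20 box H/ACA genes (right), ordered by difference, with CFLARs Tg as filled and wild-type as open symbols, circles for XX-type and triangles for XY-type titles, and the background scale of 5.13 to 6.78 in grey. The filled symbols lie to the right of both open ones for 27 of the 51 genes and to the left of both for 3.

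Among box C/D genes the largest difference was that of Snord118, which encodes U8, a snoRNA needed for making the 5.8S and 28S ribosomal RNAs. Snord118 read 12.44 and 11.56 in CFLARs Tg, against 11.04 and 10.56 in wild-type. Each CFLARs Tg array was above each wild-type array, and the mean was 2.30-fold higher (difference 1.202, SE 0.32), but the 2 arrays of a genotype differed by 0.88 in CFLARs Tg and by 0.48 in wild-type, and the gene did not pass (limma adjusted p = 0.0772). With sex type as a block, which pairs arrays by title only, the limma adjusted p was 0.00651. XCFX exceeded XX by 1.40 and XCFY exceeded XY by 1.005. Without CFLARs Tg replicate 1 its difference was 0.76 (adjusted p = 0.0475) and without CFLARs Tg replicate 2 it was 1.64 (adjusted p = 0.0122), whereas it was 1.44 (adjusted p = 0.215) without wild-type replicate 1 and 0.96 (adjusted p = 0.288) without wild-type replicate 2. Its 2 probe sets had differences of 1.202 and 1.203 with nearly equal readings on every array, so they are no separate measurements. Snord118 is the only member that no other gene of the gene table contains. It lies between Tmem107 and Vamp2 on chromosome 11.

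The largest rise that passed was that of Snord14e. U14 snoRNAs, the Snord14 group, take part in the cutting of the precursor of 18S ribosomal RNA, and Snord14e lies in Hspa8, the gene of a constitutive heat shock cognate protein. Snord14e read 11.06 on both CFLARs Tg arrays, against 10.07 and 10.39 in wild-type, a 1.77-fold difference (0.82, SE 0.12, limma adjusted p = 0.0245). The gap between the wild-type arrays (0.32) was smaller than the distance between the genotypes.

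Snord16a, a box C/D RNA in the ribosomal protein gene Rpl4, read 9.997 and 10.16 in CFLARs Tg, against 9.37 and 9.40 in wild-type. It rose 1.62-fold (difference 0.69, SE 0.08, adjusted p = 0.0186). Its pair differences were 0.62 and 0.77. The groups were far apart beside the gap of 0.17 between the CFLARs Tg arrays.

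Snord95 and Snord96a lie next to each other in Rack1, the gene of a scaffold protein of the small ribosomal subunit. Snord95 read 9.47 and 9.48 in CFLARs Tg, against 8.998 and 9.03 in wild-type, and rose by 0.46 (SE 0.06, adjusted p = 0.0211). Snord96a read 8.17 and 8.43, against 7.84 and 7.93, a difference of 0.42 (SE 0.10, adjusted p = 0.0660, or 0.0307 with sex type as a block). Both genes were higher on each CFLARs Tg array than on each wild-type array, as were 29.2% of all genes.

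Snord53 lies in Wdr43, the gene of a factor of small ribosomal subunit assembly. It read 10.99 and 10.91 in CFLARs Tg, against 10.58 and 10.47 in wild-type, and rose by 0.42 (SE 0.07, adjusted p = 0.0302). Snord42b, in the ribosomal protein gene Rpl23a, read 9.40 and 9.57, against 9.12 and 9.07, and rose by 0.39 (SE 0.08). Snord42a, in the same host, read 9.01 and 9.25, against 8.95 and 8.95, a difference of 0.18 (adjusted p = 0.276). Both CFLARs Tg arrays lay above both wild-type arrays for these 3 genes, as for 29.2% of all genes.

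The other pairs with a shared number gave close differences in part. Snord15a and Snord15b, both in Rps3, differed by 0.19 each between the genotypes (adjusted p = 0.270 and 0.121). Snord73a and Snord73b, both in Rps3a1, differed by 0.15 and 0.14 (adjusted p = 0.375 and 0.588), with Snord73a within the background scale. Snord49a and Snord49b, both in the noncoding gene 2410006H16Rik, differed by 0.40 (SE 0.09) and 0.19 (SE 0.07, adjusted p = 0.132). Snord35a, in Rpl13a, read 10.86 and 11.11 in CFLARs Tg, against 10.78 and 10.64 in wild-type (difference 0.28, adjusted p = 0.164), and Snord35b read 10.02 and 9.85, against 9.98 and 10.06 (difference -0.09, adjusted p = 0.556). Snord33, in Rpl13a like Snord35a, differed by 0.23 (adjusted p = 0.117); in mouse the snoRNAs of Rpl13a are known for a role in the response to lipid and oxidative stress.

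Of the box C/D genes named for a function in cutting or for their noncoding hosts, none passed besides Snord14e. Snord22, which encodes U22 of 18S ribosomal RNA processing and lies in Snhg1, read 7.83 and 8.13 in CFLARs Tg, against 7.71 and 7.89 in wild-type, so that the groups overlapped (difference 0.19, adjusted p = 0.390). Snord47, in Gas5, differed by 0.29 (limma adjusted p = 0.176). Snord87, in Snhg6, differed by 0.38 (adjusted p = 0.143) and Snord52, in 1110038B12Rik, by 0.29 (adjusted p = 0.144). In each of them both CFLARs Tg arrays lay above both wild-type arrays, as in 29.2% of all genes. The U3 gene Rnu3a, a box C/D RNA outside the symbol rule, read 9.02 and 8.58, against 8.52 and 8.44 (difference 0.32, adjusted p = 0.245).

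Several bright box C/D probe sets had small differences. Snord57, in Nop56, read 12.73 and 12.79 in CFLARs Tg, against 12.91 and 12.77 in wild-type (difference -0.08, SE 0.07, adjusted p = 0.529). Snord82, in Ncl, read 11.72 and 11.83, against 11.93 and 11.82 (difference -0.10, SE 0.07, adjusted p = 0.458). Snord49b read 11.94 and 11.89, against 11.77 and 11.68. The first 2 of these overlapped between the genotypes.

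Snord61 and Snord8 were the box C/D genes with both CFLARs Tg arrays below both wild-type arrays. Snord61, in Rbmx on the X chromosome, read 6.23 and 6.39 in CFLARs Tg, against 6.80 and 6.63 in wild-type (difference -0.40, SE 0.09, adjusted p = 0.0579), and its readings straddled the upper end of the background scale. Snord8, in Chd8, read 9.11 and 9.06, against 9.12 and 9.12 (difference -0.04, adjusted p = 0.719). The lowest difference, -0.42 for Snord104, came from 1 array and is described with the array gaps.

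Among box H/ACA genes the 3 that rose were Snora23, Snora21 and Snora75. Snora23 lies in Ipo7, the gene of a nuclear import receptor that carries ribosomal proteins. It read 10.55 and 10.45 in CFLARs Tg, against 10.12 and 9.98 in wild-type, and rose 1.37-fold (difference 0.45, SE 0.08, adjusted p = 0.0324). Snora21, in the ribosomal protein gene Rpl23, read 8.83 and 8.92, against 8.47 and 8.42, and rose 1.35-fold (difference 0.43, SE 0.06, adjusted p = 0.0266). Snora75, in the nucleolin gene Ncl, read 8.16 and 8.36, against 7.86 and 7.85, and rose 1.33-fold (difference 0.41, SE 0.08, adjusted p = 0.0450). In all 3 genes both CFLARs Tg arrays lay above both wild-type arrays, as in 29.2% of all genes. The second probe set of Snora21 had a difference of 0.43 as well, but it was read on the same arrays and adds no replicate.

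The other box H/ACA genes did not pass. Snora3, in Rpl27a, had a difference as large as the genes that rose (0.43), but its wild-type arrays, at 10.15 and 9.81, were 0.33 apart (CFLARs Tg 10.31 and 10.52, adjusted p = 0.106). Snora41, in Eef1b2, read 8.29 and 8.12 in CFLARs Tg, against 8.01 and 7.64 in wild-type (difference 0.38, adjusted p = 0.150, or 0.0450 with sex type as a block). Snora74a, Snora20 and Snora70 had differences of 0.30, 0.30 and 0.22 (adjusted p = 0.369, 0.126 and 0.0791). Snora52, in Rplp2, gave 13.21 and 13.24 against 13.25 and 13.18, and Snora7a, in Rpl32, gave 11.68 and 11.57 against 11.63 and 11.51, so these bright probe sets overlapped between the genotypes, with differences of 0.01 and 0.06 (SE 0.06 and 0.08). Snora30, in Srcap, was the box H/ACA gene with both CFLARs Tg arrays below both wild-type arrays, at 8.73 and 8.58 against 8.95 and 8.88 (difference -0.26, SE 0.08, adjusted p = 0.0970).

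The remaining 11 members had differences between -0.09 and 0.19, and none passed. Snord55 read 9.59 and 9.52 in CFLARs Tg, against 9.40 and 9.40 in wild-type (difference 0.16, adjusted p = 0.163), and Snord38a, within the background scale, differed by -0.02 (adjusted p = 0.925). Snora16a and Snora44 share the noncoding host Snhg12 and differed by 0.14 and -0.09 (adjusted p = 0.185 and 0.708), with the groups apart in Snora16a and overlapping in Snora44. In hosts of the translation machinery, Snord37 (in Eef2) differed by 0.13, Snora33 (in Rps12) by 0.19, Snora62 (in Rpsa) by 0.05 and Snora69 (in Rpl39) by -0.00016, all with overlapping groups. Snora31 (in Tpt1), Snord85 and Snora2b (in Kansl2) differed by 0.14, 0.08 and 0.01.

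**Figure D2:**
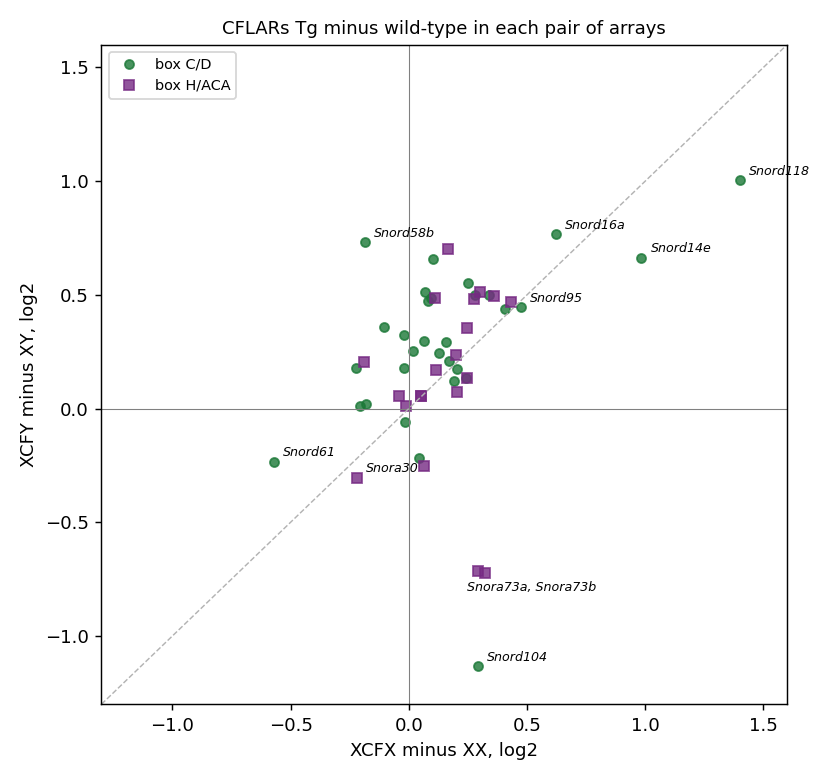
The difference of each snoRNA gene between XCFX and XX (horizontal axis) and between XCFY and XY (vertical axis), on the log2 scale, for box C/D genes as circles and box H/ACA genes as squares, with a dashed line where both are equal. Snord118, Snord14e and Snord16a lie at the upper right, and Snord104, Snora73a and Snora73b at the lower right with differences of opposite sign.

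The CFLARs Tg arrays differed from each other most in Snord104, Snord118, Snora73b, Snora73a and Snord58b. Snord104, in the noncoding gene Gm36220, read 12.16 on XCFX and 11.12 on XCFY, against 11.87 on XX and 12.25 on XY. XCFX minus XX was 0.29 and XCFY minus XY was -1.13, and the mean difference of -0.42 did not pass (SE 0.36, adjusted p = 0.499). Only the XCFY array was below the other 3.

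Snora73a and Snora73b encode U17 RNAs, box H/ACA snoRNAs that act in the cutting of the 18S precursor, and both lie in Snhg3. Snora73a read 11.18 on XCFX and 10.43 on XCFY, against 10.88 on XX and 11.14 on XY, and Snora73b read 11.40 and 10.61, against 11.08 and 11.33. On XCFX both were higher than on either wild-type array and on XCFY both were lower. The mean differences were -0.21 and -0.20 (SE 0.26 and 0.27). Without CFLARs Tg replicate 1 they were -0.58 and -0.60 (adjusted p = 0.0233 and 0.0217), and without CFLARs Tg replicate 2 they were 0.16 and 0.19 (adjusted p = 0.397 and 0.318). Snord104 likewise gave -0.94 (adjusted p = 0.0146) and 0.10 (adjusted p = 0.712). Snord58b read 6.79 on XCFY and 6.09 on XCFX, within or at the edge of the background scale. For the median member the 2 CFLARs Tg arrays were 0.17 apart and the wild-type arrays 0.13, against 0.10 and 0.06 for all genes.

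Each of 50 members lies inside another gene of the mouse gene table (assembly GRCm38.p6), here called its host, whatever the strand, which the table does not give. These are 40 host genes, of which 24 had a probe set with 1 symbol. The hosts are ribosomal protein genes for 21 members, other protein-coding genes for 17 and noncoding genes for 12. Of these members 3, 5 and 0 rose (14.3%, 29.4% and 0%, against 5.31% of all genes). Their median differences were 0.19, 0.14 and 0.19.

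The host genes themselves were slightly higher in CFLARs Tg. Of the 24 measured, 5 rose (20.8%, against 5.31% of all genes), with a median of 0.13. The hosts that rose were Nop56 (0.86, adjusted p = 0.0173), Wdr43 (0.73, adjusted p = 0.0166), Ncl (0.60, adjusted p = 0.0276), Ipo7 (0.59, adjusted p = 0.0303) and Rpsa (0.29, adjusted p = 0.0436). The other ribosomal protein hosts did not pass, and Rpsa missed the threshold in the fit blocked by sex type (adjusted p = 0.0599).

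Pooled over both classes, the difference of a snoRNA gene correlated weakly with that of its host, which was not tested. Over 28 members with a measured host, in 24 hosts, Pearson's r between both differences was 0.09 and Spearman's rho 0.19, as a description of probe sets that share arrays and in part a transcript. In box C/D r was -0.05 (15 members) and in box H/ACA 0.40 (13 members). The sign was shared by 20 members, 17 higher and 3 lower in both.

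Single hosts show this spread. Hspa8 read 13.59 and 13.58 in CFLARs Tg, against 13.42 and 13.49 in wild-type (difference 0.13, SE 0.06, adjusted p = 0.239), beside 0.82 for Snord14e. Rpl4 read 12.14 and 12.21, against 12.13 and 12.13 (difference 0.05, SE 0.06), beside 0.69 for Snord16a, and Rpl23 differed by -0.01, beside 0.43 for Snora21. In these 3 cases the snoRNA gene passed and the host did not, but the difference between them was not tested.

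The opposite was seen in Nop56 and Ncl. Nop56 read 11.49 and 11.70 in CFLARs Tg, against 10.70 and 10.77 in wild-type, while Snord57, inside it, differed by -0.08. Ncl read 12.05 and 12.28, against 11.58 and 11.55, and it holds both Snora75, which rose by 0.41, and Snord82, with a difference of -0.10. Of the 10 hosts with 2 measured members, Ncl had members that lay furthest apart, by 0.50, and those of Rps3 lay closest, within 0.002.

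**Figure D3:**
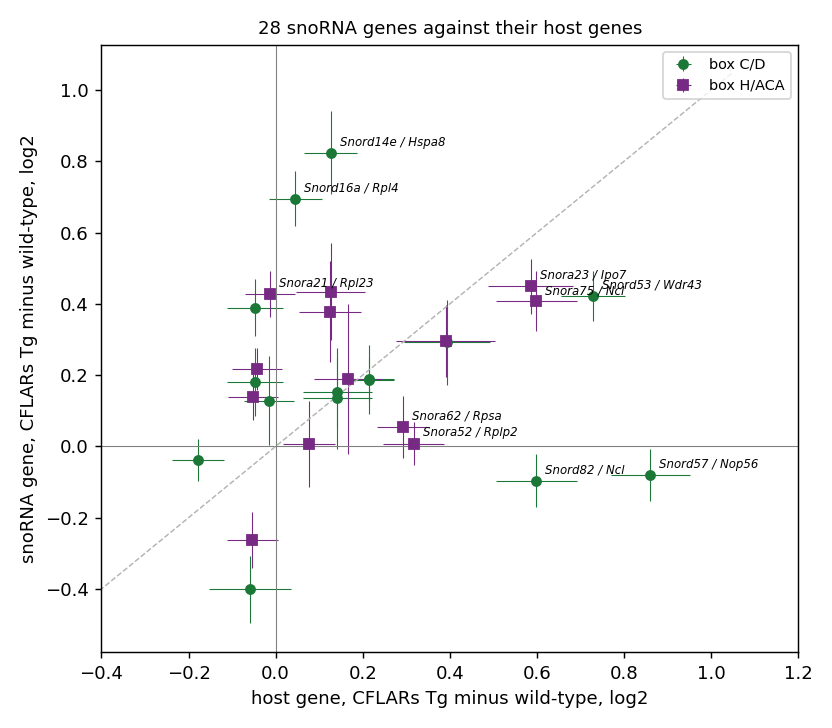
The difference of each of 28 snoRNA genes (vertical axis) against that of its host gene (horizontal axis), both in log2 units with CFLARs Tg over wild-type, bars for the moderated SE and a dashed line where both are equal. Snord14e and Snord16a lie far above their hosts Hspa8 and Rpl4, and Snord57 and Snord82 far below Nop56 and Ncl.

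Many snoRNA host genes are known to start their transcripts with a tract of pyrimidines, a feature of genes for the translation machinery. The starts of 7 hosts are printed here from RefSeq (GRCm38.p6), 5′ to 3′, from 50 bases before to 10 bases after the annotated start. They are the hosts of members that rose, as far as the table holds them (Rpl4, Rack1, Wdr43, Ipo7, Rpl23 and Ncl), and the host of a bright member with little difference (Rplp2). Capitals mark the longest run of C and T letters, on the strand of the gene, where it has at least 10 letters between 20 bases before and 10 after the start. The windows are Rpl4 at chr9:64173337-64173396 (plus strand), Rack1 at chr11:48800310-48800369 (plus), Wdr43 at chr17:71616165-71616224 (plus), Ipo7 at chr7:110018265-110018324 (plus), Rpl23 at chr11:97782430-97782489 (minus), Ncl at chr1:86359446-86359505 (minus) and Rplp2 at chr7:141447601-141447660 (plus).
Rpl4: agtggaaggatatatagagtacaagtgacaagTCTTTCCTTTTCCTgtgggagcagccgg
Rack1: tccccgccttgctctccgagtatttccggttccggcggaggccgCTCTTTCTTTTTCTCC
Wdr43: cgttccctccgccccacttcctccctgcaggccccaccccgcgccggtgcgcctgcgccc
Ipo7: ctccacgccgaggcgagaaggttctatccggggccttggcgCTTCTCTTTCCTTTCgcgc
Rpl23: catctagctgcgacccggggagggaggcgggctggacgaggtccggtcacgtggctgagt
Ncl: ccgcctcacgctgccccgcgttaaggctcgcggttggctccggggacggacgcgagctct
Rplp2: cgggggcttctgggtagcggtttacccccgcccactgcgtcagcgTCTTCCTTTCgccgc

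Within the bases searched, the runs had 14 letters in Rpl4, 16 in Rack1, 15 in Ipo7 and 10 in Rplp2. The run of Rpl4 lies wholly before the annotated start, while those of Rack1, Ipo7 and Rplp2 span it. The run of Rack1 reaches the last base searched and may be longer. The longest run within these bases had 4 letters in Wdr43, 3 in Rpl23 and 4 in Ncl. The printed windows of Wdr43, Rpl23 and Ncl also end in C or T, so a run that continues past them could not be measured. Hosts of members that rose were thus found with and without a run of at least 10 letters within the bases searched. Whether the annotated start is the one used in this tissue was not tested. Of the 40 hosts 31 were in the table, and 5 of these, or 16.1%, held such a run. Of all 32851 start windows 5.75% held such a run. The former share counts host genes and the latter counts windows, so the units differ. Whether hosts hold such runs more often than other genes was therefore not tested. A run is a description of these letters and no statement on how a gene is controlled.

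The genes of the snoRNP proteins had larger differences than most snoRNA genes. Of the 4 box C/D core protein genes 4 rose, against 5.31% of all genes, with a median of 0.71. Nop56, a scaffold protein of the particle, read 11.49 and 11.70 in CFLARs Tg, against 10.70 and 10.77 in wild-type, a difference of 0.86 (SE 0.09, adjusted p = 0.0173). Its partner Nop58 read 9.89 and 10.22, against 9.27 and 9.29 (difference 0.78, adjusted p = 0.0268). Fbl, which encodes the methyltransferase fibrillarin, read 10.62 and 10.87, against 10.08 and 10.11 (difference 0.65, adjusted p = 0.0264), and Snu13, which binds the RNA first, differed by 0.45 (adjusted p = 0.0332). Each CFLARs Tg array was above each wild-type array in all 4 genes, as in 29.2% of all genes.

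Of the 4 box H/ACA core protein genes 3 rose, against 5.31% of all genes, with a median of 0.76. Gar1 read 10.46 and 10.67 in CFLARs Tg, against 9.82 and 9.80 in wild-type (difference 0.76, SE 0.09, adjusted p = 0.0187). Nhp2 differed by 0.76 (adjusted p = 0.0218) and Nop10 by 0.38 (adjusted p = 0.0341). Dkc1, the pseudouridine synthase itself, read 9.73 and 10.29, against 9.17 and 9.33, and with these arrays further apart it did not pass (difference 0.76, SE 0.19, adjusted p = 0.0684, or 0.0168 with sex type as a block). Both CFLARs Tg arrays lay above both wild-type arrays in all 4 genes, as in 29.2% of all genes. All 25 calls among snoRNA genes, measured hosts, snoRNP protein genes and noncoding host genes were lost without wild-type replicate 1 (adjusted p from 0.140 to 0.272) and without wild-type replicate 2 (from 0.0746 to 0.293).

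**Figure D4:**
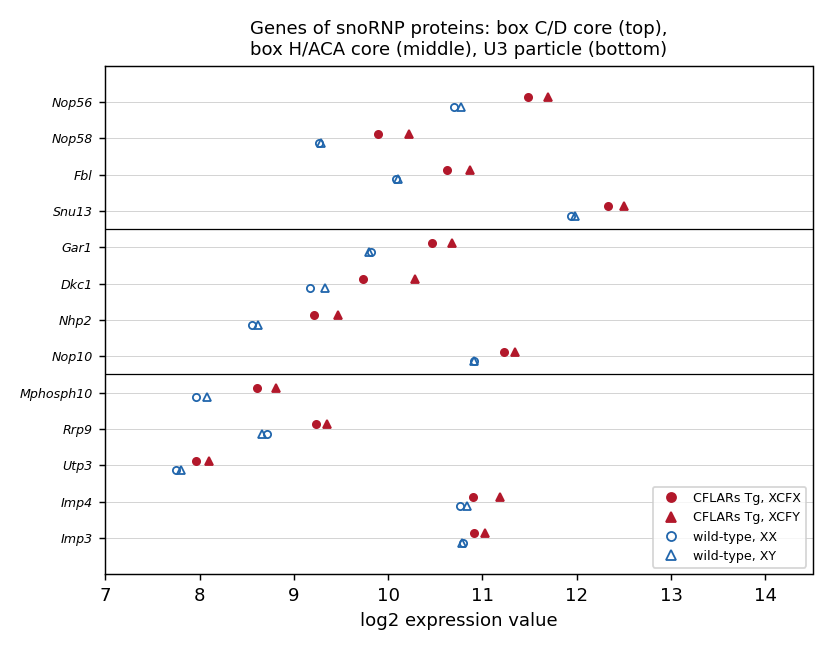
The log2 expression value (horizontal axis) on each array of the genes for box C/D core proteins, box H/ACA core proteins and proteins of the U3 particle, with CFLARs Tg as filled and wild-type as open symbols, circles for XX-type and triangles for XY-type titles. In all 13 genes both CFLARs Tg arrays lie above both wild-type arrays, and 9 of the 13 rose, against 29.2% and 5.31% of all genes.

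Among 5 genes of the U3 particle 2 rose, against 5.31% of all genes. Rrp9, a protein of the U3 snoRNP, rose by 0.60 (SE 0.07, adjusted p = 0.0187) and Mphosph10 by 0.69 (SE 0.09, adjusted p = 0.0218), while Imp3, Imp4 and Utp3 had differences of 0.18, 0.24 and 0.26 (adjusted p = 0.153, 0.222 and 0.0844). Of 14 genes for assembly and trafficking 2 rose (14.3%, against 5.31% of all genes), with a median of 0.30 over the list. They were the ATPase gene Ruvbl1 (0.48, limma adjusted p = 0.0228) and Nolc1 (0.71, adjusted p = 0.0356), the gene of a chaperone that shuttles snoRNPs to nucleoli. Ruvbl2, Nufip1, Rpap3, Znhit3 and Znhit6, which act with Ruvbl1 in box C/D assembly, had differences of 0.38, 0.38, 0.28, 0.21 and 0.33 (adjusted p from 0.0616 to 0.148). Shq1 and Naf1, assembly factors of box H/ACA particles, differed by 0.17 and 0.37 (adjusted p = 0.181 and 0.178). Bccip, Pih1d1, Coil, Tgs1 and Phax differed by 0.32, -0.08, 0.04, 0.07 and 0.06.

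The 9 measured genes for the trimming, debranching and decay of small RNAs had a median of 0.13, and 0 passed (limma). An unadjusted limma p under 0.05 was found for 5 (55.6%, against 30.9% of all genes). Dis3, a nuclease of the RNA exosome, differed by 0.57 (adjusted p = 0.0539), Mtrex, its helicase partner, by 0.35, Exosc3 by 0.30 and Exosc10 by 0.20. Dbr1, which opens the intron lariats that carry snoRNAs, differed by 0.13 and Xrn2 by 0.10, while Parn and Tent4b differed by -0.18 and -0.16 and Ints11 by 0.06.

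Of the 24 noncoding host genes listed 9 were measured, and 2 of them rose (22.2%, against 5.31% of all genes). Snhg5 read 9.57 and 9.72 in CFLARs Tg, against 8.98 and 8.97 in wild-type (difference 0.67, SE 0.07, adjusted p = 0.0178), and Rian, a host of imprinted snoRNAs, read 9.12 and 8.89, against 8.48 and 8.33 (difference 0.60, adjusted p = 0.0331). Gas5, host of Snord47, differed by 0.39 (adjusted p = 0.0671) and Dancr by 0.44 (adjusted p = 0.0544). Snhg17, Meg3, Snhg15 and Snhg16 differed by 0.21, 0.21, 0.14 and 0.11, and Snhg11 by -0.19 (adjusted p = 0.223). Snhg5 and Rian read higher on both CFLARs Tg arrays than on both wild-type arrays, as did 29.2% of all genes.

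Other small RNAs read from the same arrays went both ways. The 300 microRNA genes had a median difference of -0.01. Of these 300, 8 rose (2.67%, against 5.31% of all genes) and 9 fell, against 6.70% of all genes. Their median level was 6.92, near the background scale. The 3 genes of small RNAs of Cajal bodies, which resemble snoRNAs but act on spliceosomal RNA, did not pass: Scarna17 read 11.81 and 11.38 in CFLARs Tg, against 12.23 and 12.07 in wild-type (difference -0.55, SE 0.16, adjusted p = 0.0867), Scarna8 differed by 0.24 and Scarna13 by -0.01. Of the small nuclear RNA genes besides Rnu3a, Rnu12, Rnu5g, Rnu6 and Rnu7 differed by 0.01, 0.18, -0.04 and -0.09, the last 3 within or below the background scale. Rn7sk, Rny1, Rny3, Rmrp, Rpph1 and Terc differed by between -0.04 and 0.06. The vault RNA gene Vaultrc5 read 10.46 and 9.85, against 10.69 and 10.51 (difference -0.45, adjusted p = 0.230), with both CFLARs Tg arrays below both wild-type arrays, as in Scarna17. Whether the snoRNA genes differ from these sets was not tested.

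**Figure D5:**
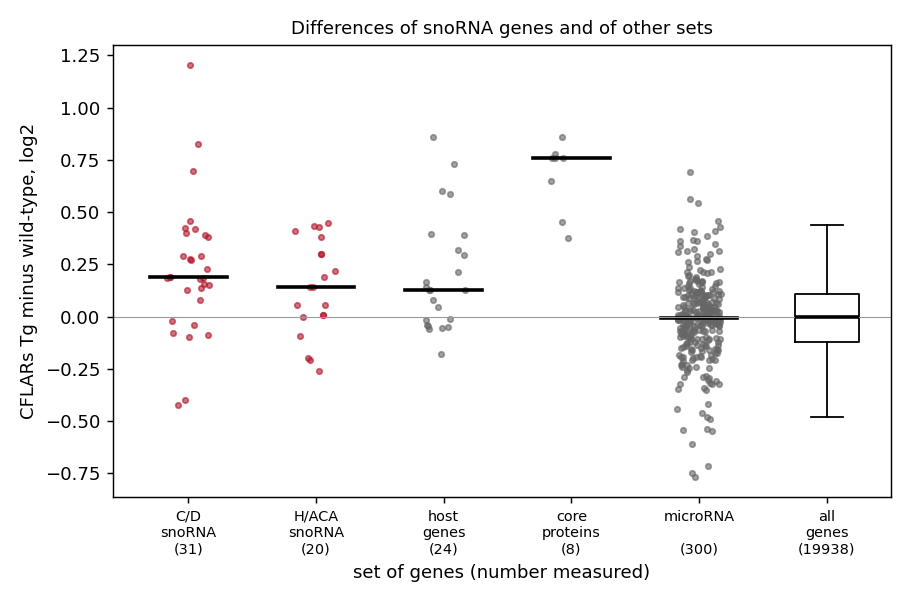
The difference between CFLARs Tg and wild-type on the log2 scale (vertical axis) of each box C/D and box H/ACA snoRNA gene, measured host gene, core protein gene and microRNA gene, with a bar at the median, and a box plot of all 19938 genes (box at the quartiles, whiskers at the 5th and 95th percentiles). The snoRNA and host medians lie at 0.19, 0.14 and 0.13, and all 8 core protein genes lie above these 3 medians. The microRNA median lies at -0.01, for genes with a median level of 6.92, near the background scale.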

How the data were processed

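The authors deposited 28856 log2 values for each array, with 0 missing. The labels name biotin labelling by the Affymetrix protocol. Summarisation, background correction and normalization are not stated in the labels, and the log2 values were used as the authors deposited them. The platform annotation gave 1 symbol for 21789 probe sets, several for 1621 and none for 5446. Updating symbols through the gene table of GRCm38.p6 changed 0. That table also gave hosts and neighbours. Some host genes are not reported here.

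CFLARs Tg (2 arrays) was compared with wild-type (2 arrays) in R 4.3.3 with limma 3.58.1 (lmFit, eBayes, no covariates) over all 19938 genes, without a filter on low values, with 2 residual and 2.96 prior degrees of freedom. The number of arrays limits the precision. The fit was tested on simulated data. Members, gene lists, hosts by position and the tests were chosen with earlier results of these data known. Named were the largest changes past the threshold, the highest means, the widest gaps between CFLARs Tg arrays, families with a shared number, hosts and all list genes. Other members were added after their values were seen. The start windows printed were also chosen so. Alternatives were a filter leaving out the lowest 30% or 50% of genes, quantile normalization, median centring, the median of a gene's probe sets, a variance trend, sex type as a block and each array left out. Sequences of snoRNAs were not used here.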

Additional observations from a re-analysis of the deposited data

Results flagged for a closer look

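In 3 members the XX-type and the XY-type pair moved in opposite directions by at least 0.25 each, as was the case for 67 of all 19938 genes. Of these members Snora73a and Snora73b share the host Snhg3 and had parallel readings on the arrays, so they may not be separate observations. Snora73a differed by 0.29 between XCFX and XX and by -0.71 between XCFY and XY. Snora73b differed by 0.32 and by -0.72, and Snord104 by 0.29 and by -1.13. With 1 array for each sex type and genotype, the difference between the pairs was not tested.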

How the results depend on the processing

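Snord104, Snora73a and Snora73b fell without CFLARs Tg replicate 1 and read higher without CFLARs Tg replicate 2. None of the 8 members that rose on all 4 arrays changed sign under these alternatives. Over 9969 genes, with the lowest 50% left out, 14 box H/ACA members were fitted and their median was 0.10. With the lowest 30% left out, quantile normalization or median centring, 9 members rose, Snord49a being added, while 2695 of 13956, 2536 and 2378 genes passed in all. With sex type as a replicate block 11 rose, with Snord118, Snora41 and Snord96a added to the 8, and 2908 genes passed in all. This block pairs arrays by title only and leaves fewer residual degrees of freedom than the main fit. Across 19105 autosomal genes the array differences within the genotypes correlated at -0.005, and across the 51 snoRNA genes at -0.14. Leaving out 1 array at a time, between 0 and 16 box C/D members rose and between 0 and 1 fell, with a median between 0.15 and 0.30. Between 0 and 5 box H/ACA members rose and between 0 and 4 fell, with a median between 0.034 and 0.18. Over all genes between 51 and 2799 rose and between 6 and 3098 fell. The lone array of a genotype is then assumed to vary like the other genotype. Without a wild-type array the spread comes from the CFLARs Tg arrays alone, whose median gap was 0.10 over all genes, against 0.06 between wild-type arrays.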
